A study of Mus musculus with 12 samples.

Results

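The mRNAs of 9 enzymes of heme synthesis and breakdown were examined in livers of alcohol-fed (AF) and pair-fed (PF) mice. The genes were taken by symbol, namely Alas1, Alad, Uros, Urod, Cpox, Ppox and Fech for synthesis and the biliverdin reductases Blvra and Blvrb for breakdown. Each matched 1 of the 54232 Ensembl gene IDs of the count table, and all 9 were among the 14168 genes with enough counts to be tested. Heme is made from glycine and succinyl-CoA by a chain of enzymes that starts in mitochondria, passes through the cytosol and ends in mitochondria again, and it is broken down by heme oxygenase and biliverdin reductase to bilirubin. Liver is a major site of this pathway outside the bone marrow, because hepatocytes supply heme to cytochrome P450 enzymes, and Alas1 is the rate-limiting enzyme there.

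RNA of whole liver came from 5 PF and 7 AF male mice of strain C57BL6/J, with 1 library per mouse and an age of 8 weeks in the labels. PF mice received an isocaloric high-fat liquid diet for 8 weeks. AF mice received that kind of diet with alcohol, raised in the course of 8 weeks to 27 g/kg/day. From the second week on they were also given a binge of alcohol at 5 g/kg each week. The liquid diet was infused into the stomach, and a solid Western diet was eaten beside it. Livers were taken one day after the final binge.

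Between 24129900 and 30578639 reads per library were counted on genes, and the members held between 274 and 38296 reads in any library. Levels are reads per 1000000 reads of the library (CPM), scaled with the trimmed-mean factors (TMM) of edgeR. AF was set against PF with the quasi-likelihood test of edgeR, which gave the log2 fold change (log2FC), its standard error (SE) and a p value adjusted by the Benjamini-Hochberg method over all genes tested. A gene was called at an adjusted p under 0.05, and each adjusted p comes from that test unless another is named. TMM factors were 0.832 to 0.901 in PF and 0.88 to 1.36 in AF livers, so the scale of AF values depends on them. On library totals without factors, the median log2FC over all of these genes was 0.40 instead of 0.04. Summed levels of 7 hepatocyte markers ranged from 99579 to 141374 CPM in PF and from 55794 to 105411 CPM in AF livers, and AF replicates 6 and 7 were the highest AF livers at 104407 and 105411 CPM. Of these markers, 2 of 7 were lower and 0 were higher in AF livers. By contrast, 5 of 7 Kupffer cell markers and 3 of 7 markers of recruited macrophages were higher. So were 4 of 5 tested bile duct markers and 5 of 6 markers of stellate cells and fibroblasts. Of 6 neutrophil markers 0 were higher, and of 6 markers of sinusoidal endothelium 1 was higher. Summed neutrophil markers were 742 CPM in PF replicate 1, the highest of all livers. Of all genes tested, 22.0% were higher and 17.8% were lower. None of these markers was at 0 in all libraries, and in whole liver, fewer hepatocytes and less RNA per hepatocyte cannot be told apart.

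Of the 7 synthesis enzymes, Cpox and Fech were lower in AF livers and none was higher, and of the biliverdin reductases, Blvrb was higher and Blvra did not pass the threshold. Thus 2 of 9 members were lower, against 17.8% of all genes tested, and 1 of 9 was higher, against 22.0% of all genes tested. These shares were close to the background, so the number of calls does not set the pathway apart. The median log2FC of the 9 members was -0.30, against 0.04 for all genes tested, and on library totals it was 0.03 against 0.40. No member had all 7 AF livers outside the range of the PF livers, which held in the upward direction for 8.20% and in the downward direction for 9.49% of genes tested. The count of lower members moved with single livers and settings. It was 5 without AF replicate 7 (against 17.8% of genes lower and 21.9% higher in that fit), 3 without AF replicate 6 (against 20.7% lower), and 1 without any one of PF replicates 1 to 5 or AF replicates 1, 3, 4 or 5 (against 14.7 to 17.8% lower). It was also 5 with sample quality weights in limma (background 25.0% lower, 28.0% higher) and with a correction for GC content and exon length (background 22.3% lower, 17.5% higher), and 1 on library totals (background 6.62% lower, 45.6% higher). The number of higher members was 1 in each of these fits but the GC content correction, where it was 0.

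**Figure D1:**
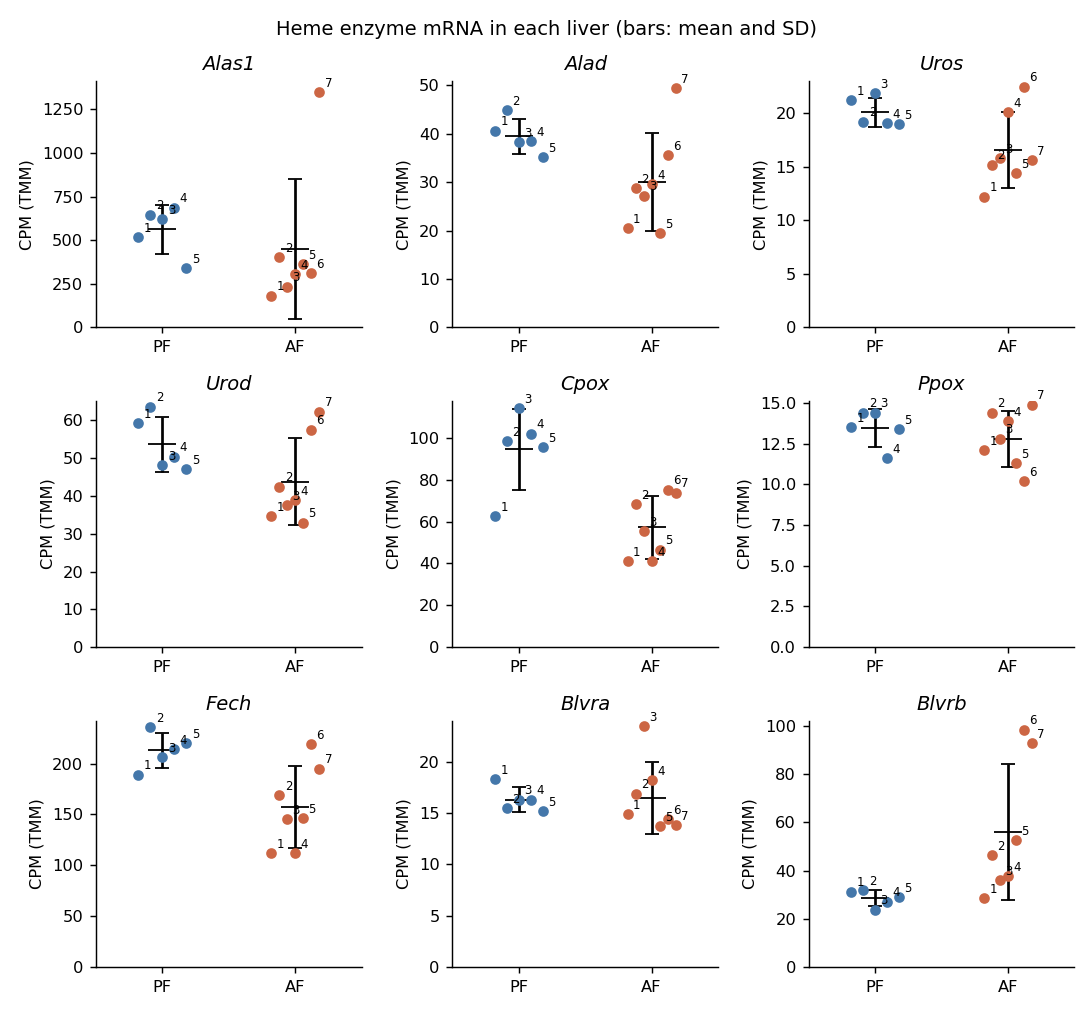
Levels of the 9 heme enzyme mRNAs in each liver, as CPM on linear axes that start at 0. Points are single livers with their replicate number, and bars are mean and SD of 5 PF and 7 AF livers. AF replicate 7 stands alone for Alas1 at 1347 CPM, and AF replicates 6 and 7 are the highest livers for Blvrb at 98.5 and 92.9 CPM.

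Alas1 (ENSMUSG00000032786, chromosome 9, 106233455 to 106248654, minus strand, GRCm38) encodes the housekeeping form of 5-aminolevulinate synthase, the first and rate-limiting step, which heme itself represses. Its level was 516, 646, 620.2, 686 and 339 CPM in PF replicates 1 to 5. In AF livers the lowest level was 181, the median 310.3 and the highest 1347 CPM. Thus 6 AF livers were below the PF median and 4 were below every PF liver, while AF replicate 7 was above all of them and the next AF liver was at 402 CPM. Mean levels were 561 ± 139.5 CPM in PF (SD, n = 5) and 449 ± 403 CPM in AF livers (SD, n = 7). This gave Alas1 a log2FC of -0.32 (SE 0.43, adjusted p = 0.571), with a 95% interval from -1.17 to 0.52. Without AF replicate 7 it was -0.91 (SE 0.225, adjusted p = 0.00824, with 0.0057 to 0.923 over 25 alternatives). Leaving out any other library kept it between -0.46 and -0.18 and short of the threshold. The annotated exons overlap 4930500F10Rik on the opposite strand, and the strand setting of the counting is not stated, so some reads are uncertain.

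The promoter of Alas1 is shown because this member varied most between livers of the AF group. RefSeq (GRCm38.p6) lists 2 overlapping windows for it, each from 250 bases before to 50 bases after a start site. The palindrome that the capitals mark is made of 2 overlapping matches to GCATGCGC, the core bound by nuclear respiratory factor 1, which was searched on both strands and which 2.71% of all 32851 windows of this length hold. It lies at bases 56 to 65 of the window at chr9:106247681-106247980, minus strand, which is printed 5′ to 3′ as read along the gene. In the other window it lies at bases 280 to 289, after the start site of that window, so its side depends on the start site used. Both windows lie within the gene span given above.
Alas1: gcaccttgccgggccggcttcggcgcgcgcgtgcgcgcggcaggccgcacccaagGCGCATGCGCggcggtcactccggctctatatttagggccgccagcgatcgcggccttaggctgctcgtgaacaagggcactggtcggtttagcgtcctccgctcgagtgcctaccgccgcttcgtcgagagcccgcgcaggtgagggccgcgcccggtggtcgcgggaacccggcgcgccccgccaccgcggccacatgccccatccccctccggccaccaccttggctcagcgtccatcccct

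**Figure D2:**
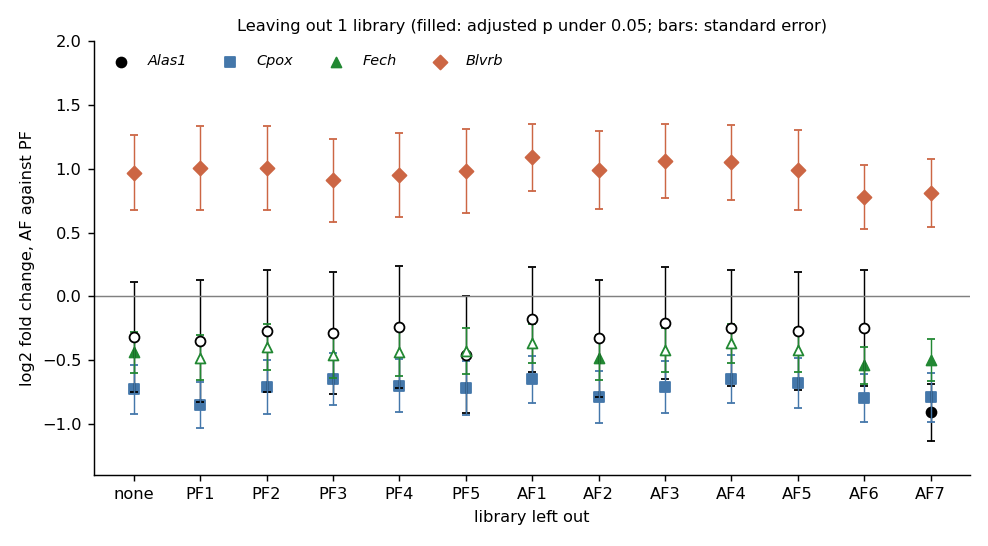
Log2FC of Alas1, Cpox, Fech and Blvrb with no library or 1 library left out, with the standard error as bars. Filled symbols have an adjusted p under 0.05. Cpox and Blvrb stay past the threshold in all 12 fits, Fech in 3 of them and Alas1 only without AF replicate 7.

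Alad (ENSMUSG00000028393, chromosome 4, 62509169 to 62519918) encodes aminolevulinate dehydratase, the cytosolic enzyme that joins 2 molecules of aminolevulinate to porphobilinogen. It was at 40.6, 44.9, 38.3, 38.5 and 35.2 CPM in PF replicates 1 to 5, and at 19.5 (lowest), 28.8 (median) and 49.4 CPM (highest) in AF livers. Again AF replicate 7 was above every PF liver, and 5 AF livers were below every PF liver. Alad had a log2FC of -0.39 (SE 0.194, adjusted p = 0.12). Without AF replicate 7 it was -0.56 (adjusted p = 0.0104, with 0.00034 to 0.705 over 25 alternatives).

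Uros (ENSMUSG00000030979, chromosome 7, 133686243 to 133710072) and Urod (ENSMUSG00000028684, chromosome 4, 116989965 to 116994413) encode the cytosolic enzymes that close the ring to uroporphyrinogen III and then decarboxylate it to coproporphyrinogen III. Uros was at 21.2, 19.2, 21.9, 19.1 and 19 CPM in PF replicates 1 to 5, and in AF livers the lowest level was 12.2, the median 15.6 and the highest 22.5 CPM. Here AF replicate 6 rather than 7 was the highest liver, and 5 AF livers were below every PF liver. The log2FC of Uros was -0.28 (SE 0.135, adjusted p = 0.114), and -0.37 without AF replicate 6 (adjusted p = 0.0189, with 0.00798 to 0.703 over 25 alternatives). Urod was at 59.2, 63.6, 48.2, 50.4 and 47 CPM in PF replicates 1 to 5, and in AF livers the lowest level was 32.9, the median 38.9 and the highest 62.3 CPM. Its groups overlapped through AF replicates 6 and 7, at 57.5 and 62.3 CPM, and the other 5 AF livers were below every PF liver. For Urod the log2FC was -0.30 (SE 0.165, adjusted p = 0.166), and -0.40 without AF replicate 7 (adjusted p = 0.0422, with 0.000557 to 0.824 over 25 alternatives). On library totals the sign of both turned, with log2FC values of 0.06 for Uros and 0.03 for Urod.

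Cpox (ENSMUSG00000022742, chromosome 16, 58670292 to 58717636, plus strand) encodes coproporphyrinogen oxidase, with which the pathway returns to mitochondria. It was at 62.4, 98.5, 114, 102 and 95.6 CPM in PF replicates 1 to 5. In AF livers the lowest level was 40.9, the median 55.5 and the highest 75.1 CPM. All 7 AF livers were below the PF median, and the groups overlapped only because PF replicate 1 was lower than AF replicates 2, 6 and 7. Mean levels were 94.6 ± 19.4 CPM in PF (SD, n = 5) and 57.3 ± 15.1 CPM in AF livers (SD, n = 7). The log2FC was -0.73 (SE 0.19, adjusted p = 0.0093). An exact two-sided permutation test of mean log2 CPM over the 792 splits of the same livers gave an unadjusted p = 0.0114. Cpox was past the threshold in each of 25 alternatives, with log2FC values from -1.07 to -0.41. Its exons overlap Gpr15 on the opposite strand. The promoter window is shown because Cpox was the member whose call held in every alternative. At chr16:58669958-58670257, plus strand, the capitals mark TGAGNNNGC, an antioxidant response element core (bases 119 to 127, held by 17.6% of windows), and the GATA motifs TGATAA (bases 165 to 170, held by 9.05%) and AGATAA (bases 255 to 260, held by 11.2%), both of which read as the opposite strand here.
Cpox: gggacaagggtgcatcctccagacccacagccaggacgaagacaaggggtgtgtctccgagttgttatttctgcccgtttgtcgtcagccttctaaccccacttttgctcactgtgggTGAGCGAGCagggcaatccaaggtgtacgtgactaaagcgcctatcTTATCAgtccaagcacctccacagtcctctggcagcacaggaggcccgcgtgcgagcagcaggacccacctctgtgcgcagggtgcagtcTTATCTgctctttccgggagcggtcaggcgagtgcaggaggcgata

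Ppox (ENSMUSG00000062729, chromosome 1, 171275990 to 171281186) encodes protoporphyrinogen oxidase, the step before iron is inserted. It was at 13.5, 14.4, 14.4, 11.6 and 13.4 CPM in PF replicates 1 to 5, and in AF livers the lowest level was 10.2, the median 12.8 and the highest 14.9 CPM. The groups overlapped over most of their range, and the log2FC was -0.07 (SE 0.106, adjusted p = 0.603), with a 95% interval from -0.28 to 0.13. Its exons overlap B4galt3 on the opposite strand, and with a correction for GC content and exon length the log2FC was -0.34 (adjusted p = 0.0161, with 0.0161 to 0.984 over 25 alternatives), while on library totals it was 0.29.

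Fech (ENSMUSG00000024588, chromosome 18, 64452914 to 64490251) encodes ferrochelatase, the mitochondrial enzyme that inserts iron into protoporphyrin. It was at 189, 236, 206, 214 and 219.8 CPM in PF replicates 1 to 5. In AF livers the lowest level was 112, the median 146 and the highest 219 CPM. The groups overlapped through AF replicates 6 and 7, at 219 and 195 CPM, and the other 5 AF livers were below every PF liver. Mean levels were 213 ± 17.3 CPM in PF (SD, n = 5) and 157 ± 40.4 CPM in AF livers (SD, n = 7). The log2FC was -0.44 (SE 0.163, adjusted p = 0.0458), and the exact two-sided permutation test gave p = 0.0253. This call was close to the threshold. It was lost in 9 of the 12 fits that left out 1 library (adjusted p from 0.00919 to 0.101 over the 12), and on library totals the log2FC was -0.12 (adjusted p = 0.31, the highest of 25 alternatives, the lowest being 0.00128).

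In the 7 AF livers, Pearson's r of the log2 levels of Cpox and Fech was 0.96, and over all 12 livers 0.92. Fech and Ppox, which act one after the other, gave r = -0.16 in the AF livers. High values there also included r = 0.94 for Alad and Urod and r = 0.91 for Fech and Blvrb, of which Fech was lower and Blvrb higher in AF than in PF livers. These coefficients share the scaling of each library and are given as description. The hepatocyte markers had the same AF livers at the top, AF replicates 6 and 7, and the part of hepatocyte content in the levels of Cpox and Fech was not tested.

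**Figure D3:**
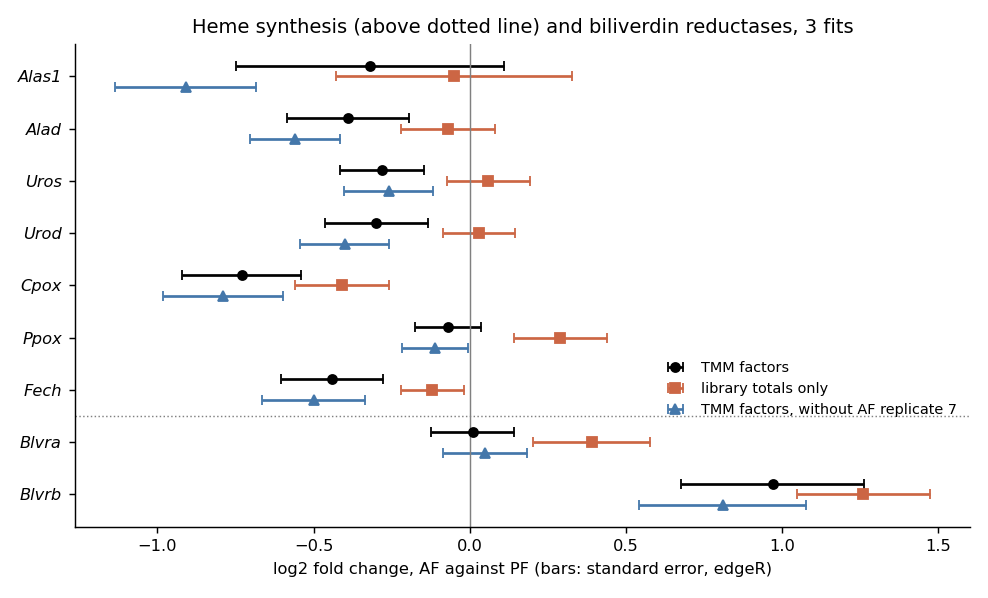
Log2FC of each member in pathway order, with the standard error, under TMM factors, library totals alone, and TMM factors without AF replicate 7. Cpox is below 0 and Blvrb above 0 in all 3 fits, whereas Uros, Urod and Ppox change sign on library totals.

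Blvra (ENSMUSG00000001999, chromosome 2, 127070665 to 127097084) encodes biliverdin reductase A, which turns the biliverdin IXα made by heme oxygenase into bilirubin. It was at 18.3, 15.5, 16.3, 16.3 and 15.2 CPM in PF replicates 1 to 5, and in AF livers the lowest level was 13.7, the median 14.9 and the highest 23.5 CPM. AF livers lay on both sides of the PF livers, with 1 above and 4 below every PF liver. Its log2FC was 0.01 (SE 0.133, adjusted p = 0.941), with a 95% interval from -0.25 to 0.27.

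Blvrb (ENSMUSG00000040466, chromosome 7, 27447978 to 27466144, plus strand) encodes biliverdin reductase B, which reduces other biliverdin isomers and flavins and is also known as flavin reductase. It was at 31.2, 31.8, 23.8, 27 and 29 CPM in PF replicates 1 to 5. In AF livers the lowest level was 28.6, the median 46.3 and the highest 98.5 CPM. All AF livers but replicate 1 were above every PF liver, and AF replicates 6 and 7 were far above the rest at 98.5 and 92.9 CPM. Mean levels were 28.5 ± 3.26 CPM in PF (SD, n = 5) and 56.1 ± 28.1 CPM in AF livers (SD, n = 7), a ratio of means of 1.97. Blvrb had a log2FC of 0.97 (SE 0.293, adjusted p = 0.0183), and the exact two-sided permutation test gave p = 0.0202. Leaving out any 1 library kept it between 0.78 and 1.09 and past the threshold. With a correction for GC content and exon length it was 0.77 and fell short of the threshold (adjusted p = 0.0544, with 0.000713 to 0.165 over 25 alternatives). Over those alternatives the log2FC of Blvrb ranged from 0.26 to 1.26, and 23 of them were past the threshold. Reads of Kupffer cell markers moved in the same direction, since their summed level was 640 to 863 CPM in PF and 885 to 2556 CPM in AF livers. The 2 AF livers with the most Blvrb were not those with the most Kupffer cell markers, at 1223 and 1481 CPM. They were the AF livers with the most hepatocyte markers, at 104407 and 105411 CPM. The part of either cell type in the level of Blvrb was not tested.

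The promoter of Blvrb is shown because it was the only member that was higher. RefSeq lists 2 windows for this gene, and the one at the annotated gene start, chr7:27447728-27448027, plus strand, is printed. Capitals mark GC boxes (GGGCGG, here on the opposite strand as CCGCCC), of which it holds 5 against at least 1 in 35.7% of windows, and TGAGNNNGC (bases 182 to 190), the antioxidant response element core that windows of Cpox and Uros hold too, here on the opposite strand.
Blvrb: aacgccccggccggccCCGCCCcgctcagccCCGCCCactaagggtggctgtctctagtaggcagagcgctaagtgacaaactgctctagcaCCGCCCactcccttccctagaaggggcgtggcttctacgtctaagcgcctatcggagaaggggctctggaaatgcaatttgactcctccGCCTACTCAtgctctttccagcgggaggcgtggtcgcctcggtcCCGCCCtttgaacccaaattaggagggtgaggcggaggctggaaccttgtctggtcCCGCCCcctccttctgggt

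The motif GTAAACA, bound by forkhead factors, was in no member window and in 3.65% of all windows. The E-box CACGTG was in windows of Alad, Uros and Urod and in 7.15% of all windows, and TGACNNNGC was in the Blvra window and in 12.4%. A RefSeq window was listed for 8 of the 9 members, and Fech had no entry. A match of letters is a description and does not show a bound site.

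Ratios of reads between members of the same liver do not depend on the scaling of libraries. The ratio of Blvrb to Blvra was 1.70, 2.05, 1.46, 1.66 and 1.9 in PF replicates 1 to 5. In AF livers it was 1.54 at the lowest, 2.74 at the median and 6.82 at the highest, and 5 AF livers were above every PF liver. The ratio of Blvrb to Ppox was 1.66 to 2.32 in PF and 2.37 to 9.62 in AF livers, without overlap. None of the other ratios given here separated the groups, and the share of all gene pairs that do so was not computed. Among single genes tested, all 7 AF livers were above the PF range for 8.20% and below it for 9.49%. The ratio of Fech to Ppox was 14 to 18.3 in PF and 8.05 to 21.4 in AF livers, with 6 AF livers below and AF replicate 6 above every PF liver. The ratio of Cpox to Ppox was 4.62 to 8.78 in PF and 2.95 to 7.33 in AF livers, with 4 AF livers below every PF liver. The ratio of Cpox to Urod was 1.05 to 2.37 in PF and 1.05 to 1.61 in AF livers. There, 1 AF liver was below and 0 were above every PF liver. Between Alas1 and Alad the ratio was 9.63 to 17.8 in PF and 8.56 to 27.3 in AF livers. For that ratio, 2 AF livers were above and 3 were below every PF liver. Between Alas1 and Fech the ratio was 1.54 to 3.21 in PF livers and 6.93 in AF replicate 7, against 1.42 to 2.75 in the other AF livers.

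**Figure D4:**
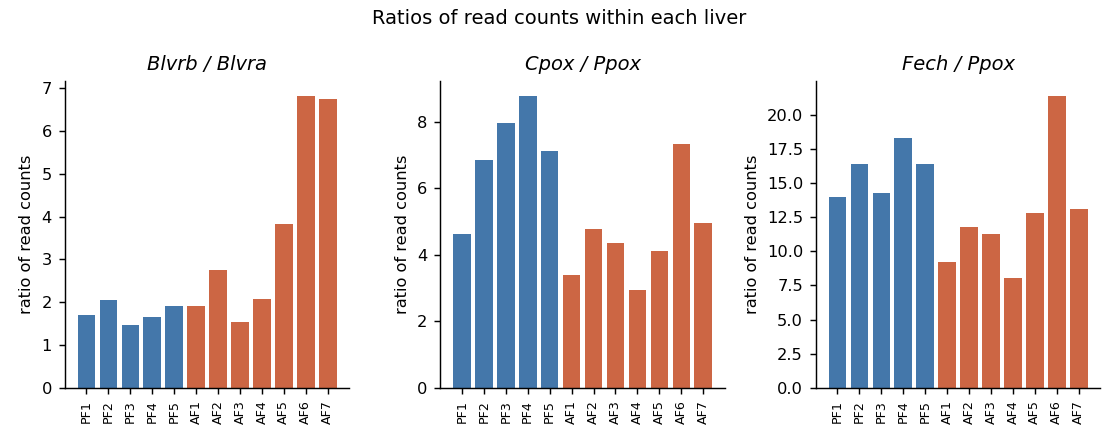
Ratios of read counts of Blvrb to Blvra, Cpox to Ppox and Fech to Ppox in each of the 5 PF (blue) and 7 AF (orange) livers, on axes that start at 0. Blvrb to Blvra reaches 6.82 and 6.75 in AF replicates 6 and 7, whereas no PF liver is above 2.05.

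Compared per kilobase of annotated exons, Alas1 was the most abundant member in PF livers, at 90.9 ± 22.6 CPM per kilobase (SD, n = 5). Alad (21.1), Urod (20.7), Fech (15.4), Cpox (14.2), Blvrb (10.3), Blvra (6.68), Uros (5.61) and Ppox (2.98 CPM per kilobase) followed. Each length joins the exons of all annotated transcripts, from 1871 bases for Alad to 13838 for Fech, and the transcripts in use were not determined. In CPM alone, Fech was above Alad in PF livers (means of 213 and 39.5), so the order depends on these lengths. The ranges of neighbours overlapped between Alad and Urod, Fech and Cpox, and Cpox and Blvrb, so the order within these pairs is open in PF livers, whereas Blvra, Uros and Ppox were separated without overlap. In AF livers Alas1 was again highest in the mean, at 72.7 ± 65.3 CPM per kilobase (SD, n = 7), and Ppox lowest at 2.83. Blvrb moved from rank 6 to rank 2 at 20.2 ± 10.1 CPM per kilobase (SD, n = 7), although its range of 10.3 to 35.4 overlapped those of Urod, Alad, Fech and Cpox. Relative to the mean, the spread between livers was wider in AF than in PF for each of the 9 members, with coefficients of variation of 6.84 to 24.9% in PF and 13.2 to 89.8% in AF livers, although the SD of Cpox in CPM was smaller in AF.

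Genes whose levels ran most like those of a member were sought among 8175 genes with a mean log2 level of at least 3, by Pearson's r over the 12 livers. For Cpox these were Chuk (r = 0.969), Pde8a (r = 0.966) and Aldh6a1 (r = 0.962). For Fech they were Ephx2 (r = 0.976), the peroxisomal enzyme gene Phyh (r = 0.976) and Surf1 (r = 0.974), and for Blvrb they were Rnf130 (r = 0.951), Nucb1 (r = 0.943) and Dus1l (r = 0.933). For Alas1, which was added because of AF replicate 7, they were Sec22c (r = 0.907), 0610005C13Rik (r = 0.897) and Pgpep1 (r = 0.882). All of these are coefficients across livers of the 2 groups that share library scaling, and they carry no test.

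A further 3 enzymes of the pathway were on a list beside the members. Of these, 1 was higher and 1 was lower in AF livers, against 22.0% and 17.8% of all genes tested. This count is not read as setting the list apart. Hmox1, the inducible heme oxygenase that opens the heme ring (ENSMUSG00000005413, chromosome 8, 75093621 to 75100589), was at 46.4, 39.5, 44.8, 36.8 and 34.5 CPM in PF replicates 1 to 5, and at 79.3 (lowest), 88.5 (median) and 315 CPM (highest, AF replicate 6) in AF livers. All AF livers were above every PF liver, as for 8.20% of genes tested. The log2FC of Hmox1 was 1.59 (SE 0.344, adjusted p = 0.00334), and the fits without 1 library gave 1.15 to 1.67. Alas2, the erythroid form of the first enzyme (ENSMUSG00000025270, chromosome X, 150547375 to 150570638), was at 142, 144, 112, 114 and 108 CPM in PF replicates 1 to 5. In AF livers its lowest level was 5.47 and its highest 80.8 CPM, all below every PF liver, as for 9.49% of genes tested. Its log2FC was -1.70 (SE 0.521, adjusted p = 0.0198). The red cell genes Hba-a1, Hba-a2, Hbb-bs and Hbb-bt had log2FC values of 1.02, 0.84, 0.81 and 0.93 that were short of the threshold (adjusted p of 0.0878, 0.112, 0.1 and 0.0952), and reads shared between these near-identical copies are uncertain. Slc4a1 and Epb42, which define red cells and their precursors, had 15 and 2 reads in all PF livers together and 49 and 23 reads in all AF livers together, and were too low to be tested. The part of red cell content in the level of Alas2 was not tested.

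The counts for the lists that follow stand against 22.0% higher and 17.8% lower among all genes tested, with a median log2FC of 0.04, and none of them is read as setting a list apart. Of 17 tested genes for the transport of heme, porphyrins, glycine and iron, 3 were higher and 5 were lower (median log2FC -0.23). The heme transporters Flvcr2 and Slc48a1, of which the latter carries heme out of lysosomes, were higher in each AF liver than in any PF liver. This held for 8.20% of genes tested. Flvcr2 was at 3.11 ± 0.518 CPM in PF (SD, n = 5) and 10.8 ± 1.66 CPM in AF livers (SD, n = 7), a log2FC of 1.80 (SE 0.148, adjusted p = 4.38e-06). Slc48a1 was at 51.5 ± 4.1 CPM in PF (SD, n = 5) and 156 ± 34.1 CPM in AF livers (SD, n = 7), a log2FC of 1.60 (SE 0.147, adjusted p = 9.46e-06). Slc25a39, a mitochondrial carrier, rose too, with a log2FC of 0.63 (adjusted p = 0.0093) that was 0.21 with the correction for GC content and exon length (adjusted p = 0.281, and 0.000313 to 0.828 over 25 alternatives). Abcb10, a mitochondrial transporter of the inner membrane needed for heme synthesis in red cell precursors, fell from a PF mean of 50.3 ± 1.18 CPM (SD, n = 5) to an AF mean of 17.7 ± 3.66 CPM (SD, n = 7), a log2FC of -1.50 (SE 0.126, adjusted p = 4.97e-06). Pgrmc2, which is known to carry heme from mitochondria, and Hebp1, a heme-binding protein, had log2FC values of -0.72 (adjusted p = 1.3e-04) and -0.54 (adjusted p = 0.0403). Hebp1 lost its call in 9 of the 12 fits without 1 library (adjusted p from 0.0052 to 0.089).

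**Figure D5:**
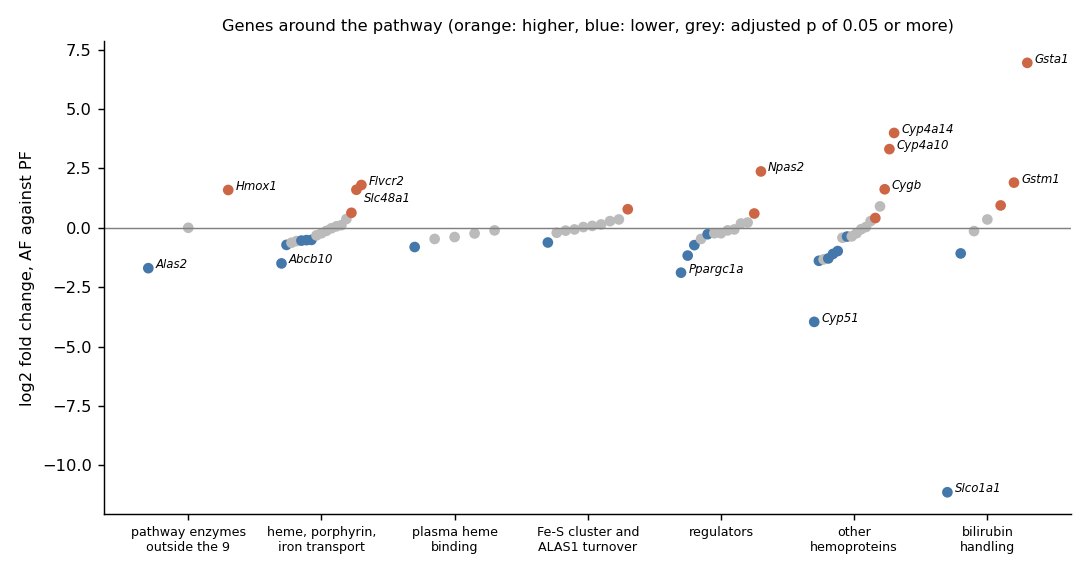
Log2FC of each tested gene of 7 lists around the pathway, with 1 point per gene. Orange points are higher and blue points lower in AF livers with an adjusted p under 0.05, and grey points are not past it. Hmox1, Flvcr2 and Slc48a1 lie between 1.59 and 1.80, and Alas2 and Abcb10 at -1.70 and -1.50.

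Among 13 genes known to regulate Alas1 or other heme enzyme genes, 2 were higher and 4 were lower, against the same 22.0% and 17.8% of all genes tested (median log2FC -0.23). Ppargc1a, a coactivator that raises Alas1 transcription in fasting, fell from a PF mean of 19.7 ± 7.59 CPM (SD, n = 5) to an AF mean of 5.33 ± 0.581 CPM (SD, n = 7), a log2FC of -1.89 (SE 0.201, adjusted p = 3.29e-05). Its level was 4.65 to 6.32 CPM in the 7 AF livers, all below every PF liver, as for 9.49% of genes tested. Nr1d1, a clock repressor that binds heme, had a log2FC of -1.17 (adjusted p = 4.38e-04), and Foxo1 one of -0.73 (adjusted p = 0.00151). Nfe2l2, which encodes NRF2, rose with a log2FC of 0.60 (adjusted p = 0.0107). Npas2, a clock factor that binds heme, had a log2FC of 2.37 (adjusted p = 0.0422) and lost the call in 8 of the 12 fits without 1 library (adjusted p from 0.0134 to 0.0937). Its counts were low, at 2 to 21 reads in PF livers and at 3 and 8 reads in AF replicates 6 and 7. Of the 7 AF livers, 4 were above every PF liver.

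Of the 10 factors for iron-sulfur clusters, succinyl-CoA supply and ALAS1 turnover, Lonp1, the mitochondrial protease that degrades ALAS1, was higher (log2FC 0.78, adjusted p = 0.0036) and Sucla2, a subunit of succinyl-CoA ligase, was lower (log2FC -0.62, adjusted p = 0.00259). Lonp1 was past the threshold in 23 of 25 alternatives and not in those with the GC content correction, with log2FC values down to 0.29 (adjusted p up to 0.239). Of 5 plasma proteins and receptors for heme and hemoglobin, 1 was lower, haptoglobin (Hp), with a log2FC of -0.81 (adjusted p = 0.0302) and loss of the call in 6 of the 12 fits without 1 library (adjusted p from 0.00352 to 0.0631). Of 18 other hemoproteins, 4 were higher and 6 were lower, against 22.0% and 17.8% of all genes tested (median log2FC -0.30). Those with the largest changes were Cyp4a14 (log2FC 3.99, adjusted p = 0.0065), Cyp4a10 (3.31, adjusted p = 0.00587) and Cygb (1.62, adjusted p = 6.81e-04) upwards, and Cyp51 (-3.96, adjusted p = 3.49e-07), Ido2 (-1.39, adjusted p = 3.81e-04) and Cyb5b (-1.29, adjusted p = 1.26e-04) downwards. Without AF replicate 7 the log2FC was 3.17 for Cyp4a14 and 2.32 for Cyp4a10, the lowest values of the fits without 1 library. The Cyp4a genes belong to a family of close copies, so reads shared between them are uncertain. Of 7 genes for the uptake, binding, conjugation and export of bilirubin, 3 were higher and 2 were lower, against the same shares (median log2FC 0.35). The bilirubin-binding transferases Gsta1 (log2FC 6.94, adjusted p = 2.74e-05) and Gstm1 (1.9, adjusted p = 3.25e-04), which have close copies too, and the exporter Abcc3 (0.94, adjusted p = 0.00507) were higher. Abcc3 was past the threshold in 23 of 25 alternatives and not in those with the GC content correction, with log2FC values down to 0.33 (adjusted p up to 0.14). The uptake carrier Slco1b2 had a log2FC of -1.08 (adjusted p = 0.0122), and Slco1a1 was at 345 ± 161 CPM in PF (SD, n = 5) and 0.167 ± 0.251 CPM in AF livers (SD, n = 7).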

How the data were processed

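The authors deposited raw read counts per Ensembl gene for 12 libraries. According to the methods and the submitters' processing notes, reads were examined with FastQC 0.10.1, not trimmed, aligned to mm10 (GRCm38) with TopHat2 2.0.13, and the notes also name HTSeq 0.10.0. The annotation and strand setting of the counting are not given in the sources used here. The study's own Cuffdiff2 comparison needs alignments and was not repeated. Columns were assigned by the group and number in their names, and 0 columns were left unused. Symbols, positions and exon lengths came from GENCODE M21 (54165 of 54232 IDs named), and promoter windows from RefSeq.

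Counts were filtered with filterByExpr, scaled with TMM and tested with edgeR 4.0.16 in R 4.3.3, without covariates. The standard error was derived from the F statistic, and intervals are 1.96 standard errors. Single genes were also tested on log2(CPM + 0.1) by exact two-sided permutation over 792 splits (smallest possible p 0.00126). Alternatives used DESeq2 1.42.0, limma 3.58.1 and mgcv 1.9.3 (smooth GC content and length offset, known for 99.9% of genes), and steps were tested on simulated counts. A count of 0 allows up to 3 reads (95%), for counting error only, since reads carry no molecular identifiers.

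All 9 members are described. From each related list, at most 3 genes per direction past the threshold are named by size of change, and for members past it the 3 genes most alike. Red cell genes and the genes most like Alas1 were added after their values were seen. Members and lists were chosen with earlier results of these data known, and 2 genes of the lists are not reported here. The labels name no sequencing batch. Each library is 1 mouse, and no 2 libraries of a group (31 pairs) differed by less than 20.2 times their counting noise.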

Additional observations from a re-analysis of the deposited data

Results flagged for a closer look

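For 48 genes, the extreme liver of each group was tested by its gap to the next one. The gap passed the 95% critical value of Dixon in 10 of 96 tests. Chance passes about 1 in 20 groups, but that rate does not apply to this count, because 12 of the genes, among them Sec22c, Pgpep1, Aldh6a1 and Ephx2, had been chosen for their likeness to a member. Among the members this concerned 1 of 18 groups, Alas1 at 1347 CPM in AF replicate 7. This liver was also far above the other AF livers for Cyp4a10 (676 CPM), Cyp4a14 (367 CPM), Sec22c (17.5 CPM) and Pgpep1 (58.6 CPM). AF replicate 6 had 315 CPM of Hmox1, and AF replicate 1 had 20.5 CPM of Cygb. Of the PF livers, replicate 1 had 394 CPM of Aldh6a1 and 1630.5 CPM of Slco1b2, and replicate 2 had 977 CPM of Ephx2. No explanation was tested for these livers.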

How the results depend on the processing

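Cpox was lower in all 25 alternatives (24 listed with the design and 1 added after seeing the data) and Blvrb was higher in 23 of them, all with an adjusted p under 0.05. The number of lower members ranged from 1 to 7 over the alternatives, and that of higher members was 1 in all but the GC content and length offset fits, where it was 0. The cause was not tested for any change named here, unless the setting itself shows it.

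On library totals 1 member was lower, Uros, Urod and Ppox turned to 0.06, 0.03 and 0.29, and Fech was -0.12, while 6458 genes in all were higher (45.6%) and 938 were lower (6.62%). There, 2 other pathway enzymes, 5 transport genes, 6 iron-sulfur and turnover factors and 4 regulators were higher, and 2 transport genes were lower. With upper-quartile factors 1 member was lower (against 15.3% of genes) and Fech was at -0.39, and with the filter at 1 count in any library 1 member was lower (against 8.45%), Fech was at -0.43 and 0 plasma proteins were lower. Blvra was short of the threshold in all 25 alternatives. It was highest at 0.39 on library totals, and was at 0.00 with DESeq2 and RLE factors, -0.01 with limma-voom, and -0.09 to 0.06 without 1 library. DESeq2 gave 3 lower plasma proteins. Limma-voom gave 1 higher regulator. With sample quality weights 5 members were lower (Alad -0.43, Uros -0.28, Urod -0.32 added), and 2 plasma proteins.

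With the GC content and length offset 5 members were lower (Alad -0.64, Uros -0.41, Urod -0.51, Cpox -0.80 and Ppox -0.34) and 0 higher, since Fech at -0.44 (adjusted p = 0.129) and Blvrb at 0.77 lost their calls. The offset also gave 3 lower plasma proteins, 0 higher turnover factors and 1 higher regulator. Same-numbered livers share only a number, as correlations of their deviations were -0.08 to 0.11 and only 1 of the 5 PF livers correlated best with its own number. With the replicate number as a block, a fit that rests on AF replicates 1 to 5, 6 members were lower against 20.8% of all genes, with Alas1 at -0.94, Alad -0.67, Uros -0.39 and Urod -0.52, and Blvrb was higher at 0.47. The block also gave 2 lower turnover factors and 7 lower regulators. With block and offset together, the alternative added after seeing the data, 7 members were lower and 0 higher, with Alas1 at -1.27, Alad -0.87, Uros -0.56, Urod -0.73, Ppox -0.36 and Blvrb 0.26. That pairing and offset also gave 4109 lower genes in all (29.0%), 9 lower transport genes, 3 lower plasma proteins, 0 higher and 4 lower turnover factors, 7 lower regulators and 10 lower hemoproteins. Of the genes most like members, Sec22c and Pgpep1 turned to 0.18 and 0.22 on library totals, Dus1l to -0.17 with the offset and -0.28 with offset and block, and Nucb1 to -0.14 with both.

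Without 1 library, 1 to 5 members were lower (against 14.7 to 20.7% of genes tested), Fech ranged from -0.54 to -0.37, Alas1 from -0.91 to -0.18, Alad from -0.56 to -0.31, Uros from -0.37 to -0.21 and Urod from -0.40 to -0.23. Likewise 0 to 1 plasma proteins and 1 to 2 turnover factors were lower, and 1 to 2 regulators were higher. Depth was no limit for the members, whose lowest count was 274 reads.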
